A study of Danio rerio with 6 samples.

Results

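Collagens IX, XII and XIV are fibril-associated collagens with interrupted helices. They do not build fibrils of their own but sit on the surface of fibrils made by other collagens and link them to the surrounding matrix. Collagen IX is assembled from 3 different chains and is cross-linked to type II collagen fibrils in cartilage, and its human genes are mutated in epiphyseal dysplasias and in Stickler syndrome. Collagens XII and XIV are each built from 1 kind of chain and decorate fibrils of type I collagen in tendon, fascia, skin and cornea.

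The 8 zebrafish genes considered were col9a1a, col9a1b, col9a2, col9a3, col12a1a, col12a1b, col14a1a and col14a1b, taken by symbol from the deposited transcript table. Symbols matched for 7 of them, out of 23876 genes in the table: 4 of type IX, 2 of type XII and 1 of type XIV. The table has no row named col14a1b, but it lists LOC100331704, and the RefSeq gene table of the assembly GRCz12tu gives that gene ID the symbol col14a1b. This row is described beside the 7 members and is left out of their counts. Each gene is represented by the annotated transcript with the highest mean over the libraries.

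The libraries were made from polyadenylated RNA of entire zebrafish larvae aged 7 days post fertilization (dpf), raised at 28.5 °C, with 50 larvae in each pool. Of the 6 pools, 3 were wild type (labelled wt) and 3 were homozygous for a mutation of znf469 (labelled znf469-KO, and znf469-4del in the design text). ZNF469 is the zinc finger gene mutated in human brittle cornea syndrome, and the series title names the synthesis of extracellular matrix as its subject. The labels do not state the parents or clutches of the pools, and the spread that the p-values measure, that between these pools, may be technical.

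Values are normalised read counts, and each library held 8111192 to 9683579 reads over 1 transcript per gene. The transcript of znf469 had 296, 198 and 206 normalised read counts in wild type replicates 1 to 3 and 233, 186 and 209 in mutant replicates 1 to 3, with overlapping groups, so its level does not check the labels. Wild type replicate 1 (score 60.4) and mutant replicate 2 (score -53.0) were far from the rest on the second principal component. The components were computed on genes with a mean value of 10 or more. Results that depend on these 2 libraries are also given without them. In the libraries left, the clock gene per3 was low in wild type replicates 2 and 3 (88.3 and 86.1 normalised read counts). It was high in mutant replicates 1 and 3 (354 and 518). Group and per3 level thus cannot be told apart in that fit. Defining markers of muscle, epidermis, neurons, notochord and tendon, and 6 of 7 of cartilage, matched a row of the table and were above 0 in every library. In RNA of whole larvae, fewer cells of a type and less RNA per cell cannot be told apart.

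Mean transcript levels of the 4 type IX chains in the mutant pools were 7.65% to 12.3% of those in wild type, those of the type XII genes were 54.9% (col12a1a) and 47.3% (col12a1b), and the type XIV gene col14a1a, at 118%, did not pass the test. Of the 7 members, 5 fell (col9a1a, col9a1b, col9a2, col9a3 and col12a1a) and 2 did not pass (col12a1b and col14a1a), at a Benjamini-Hochberg adjusted p of 0.05 in limma. Over all 22803 genes tested, 2.18% were called lower in the same fit. In edgeR and in DESeq2, 6 of the 7 fell, with col12a1b added, where 2.21% and 3.12% of all genes were called lower. No member rose (0 in limma, also at an unadjusted p under 0.05, 0 in edgeR and 0 in DESeq2), against 2.31% of all genes tested called higher. The median log2 fold change of the 7 members was -3.08, and that of all genes tested was -0.0015. In 6 of the 7 members every mutant pool lay below every wild type pool, an ordering found in 11.8% of all genes tested.

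**Figure D1:**
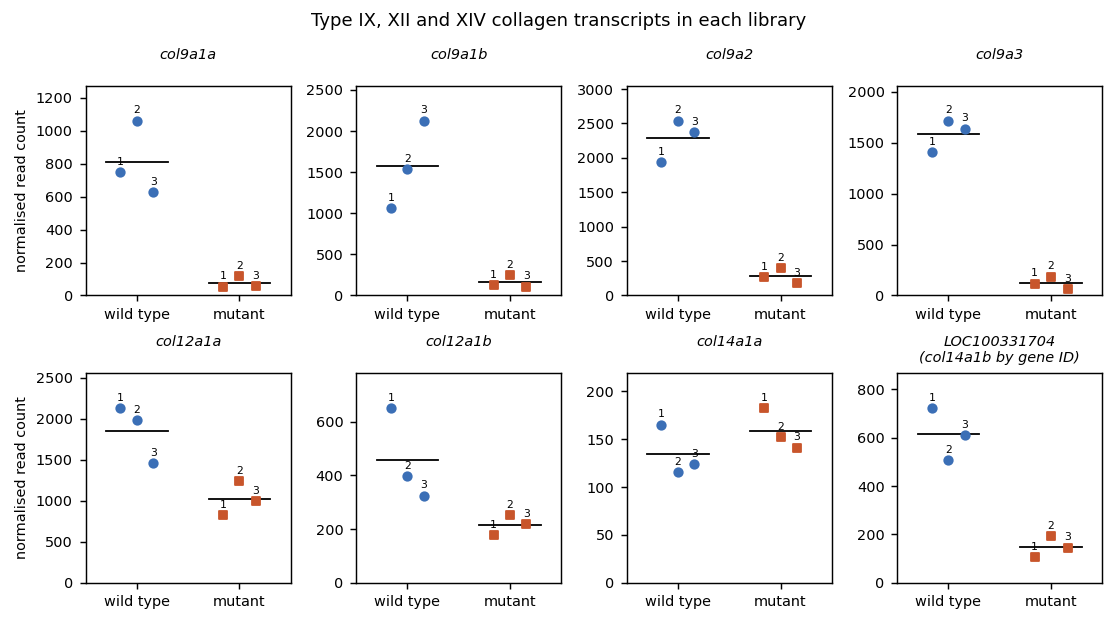
Normalised read count (vertical axis, linear from 0) of each gene in the 3 wild type pools (blue circles) and the 3 mutant pools (orange squares), with the replicate number above each point and a bar at the group mean. The groups are apart in every panel but that of col14a1a, where mutant pools at 141 to 183 overlap wild type pools at 116 to 165.

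The α1 chain of collagen IX carries the large globular end that projects from the cartilage fibril, and zebrafish have 2 genes for it. The first, col9a1a, had 748, 1061 and 629 normalised read counts in wild type replicates 1 to 3 and 53.4, 119.6 and 58.7 in mutant replicates 1 to 3. The lowest wild type pool was thus 5.26 times the highest mutant pool. The log2 fold change of col9a1a was -3.44 (SE 0.31, limma, Benjamini-Hochberg adjusted p = 0.000402).

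The other α1 gene, col9a1b, had 1065, 1539 and 2127 normalised read counts in wild type replicates 1 to 3. In mutant replicates 1 to 3 its values were 130.2, 248 and 108. Wild type pools differed among themselves by up to 1.997 times for this gene, more than for any other type IX chain, and still did not overlap the mutant pools. Its log2 fold change was -3.31 (SE 0.32, limma, Benjamini-Hochberg adjusted p = 0.000598).

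The α2 chain, in other vertebrates the chain that carries a glycosaminoglycan side chain, comes from col9a2. Its normalised read counts were 1937, 2540 and 2369 in wild type and 265, 393 and 183 in mutant replicates 1 to 3, with no overlap. Mutant pools held 12.3% of the wild type mean, the largest share left among the type IX chains. The log2 fold change was -3.08 (SE 0.25, limma, Benjamini-Hochberg adjusted p = 0.000295).

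The α3 chain, from col9a3, showed the lowest share. Its normalised read counts were 1408, 1715 and 1637 in wild type and 117, 185 and 61.8 in mutant replicates 1 to 3, which leaves 7.65% of the wild type mean. Every wild type pool was at least 7.597 times the highest mutant pool. The log2 fold change was -3.83 (SE 0.32, limma, Benjamini-Hochberg adjusted p = 0.000341), and only 0.0877% of genes tested had a lower one.

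Among the mutant pools, replicate 2 was the highest for all 4 type IX chains, and replicate 3 was the lowest for all but col9a1a, where replicate 1 was. The highest mutant pool exceeded the lowest by 2.14 times for col9a2 and by 2.997 times for col9a3. Mutant replicate 2 is 1 of the 2 libraries far from the rest. Without it and wild type replicate 1, log2 fold changes of the 4 chains ran from -4.28 to -3.47, in a fit that called 10.8% of all genes lower. Leaving out any 1 library kept all 4 calls (limma, highest adjusted p = 0.00686).

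Ratios of 2 transcripts within a library show whether chains moved by the same factor. The level of such a ratio also depends on transcript length, which the table does not give, so only its difference between groups is read. The differences of 10 ratios were tested with a two-sided exact permutation test over the libraries, and p-values were adjusted over the 10. With 3 pools against 3 this test cannot go below 0.1, so none of the differences could pass. The difference of a ratio between groups follows from the log2 fold changes of its 2 genes, so it is no separate evidence.

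The α2 transcript was higher relative to the α3 transcript in every mutant pool. The log2 ratio of col9a2 to col9a3 was 0.46, 0.57 and 0.53 in wild type replicates 1 to 3 and 1.17, 1.08 and 1.55 in mutant replicates 1 to 3. Wild type pools were close together and every mutant pool was above them, by 0.75 on average (exact p = 0.1, adjusted p = 0.143). For col9a1a to col9a3 the groups overlapped, with a difference of 0.39 (exact p = 0.4, adjusted p = 0.5). The ratio of the paralogs col9a1b to col9a1a also overlapped, at 0.51, 0.54 and 1.75 in wild type pools and 1.27, 1.04 and 0.87 in mutant pools (exact p = 0.8, adjusted p = 0.8). Wild type replicate 3 alone had the high wild type value.

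Set against col2a1a, an α1 chain of the type II fibrils that collagen IX coats, col9a3, the type IX chain with the lowest share, was lower still. The log2 ratio of col9a3 to col2a1a was -2.60, -2.83 and -2.63 in wild type and -3.14, -3.13 and -3.62 in mutant replicates 1 to 3. The groups did not overlap and differed by -0.61 (exact p = 0.1, adjusted p = 0.143). Of the type IX chains only col9a3 was set against col2a1a in this way. The log2 fold change of col2a1a was -3.22, against -3.44 for col9a1a, -3.31 for col9a1b and -3.08 for col9a2. The 95% intervals of col9a2 (-3.64 to -2.52) and col2a1a (-3.80 to -2.65) overlapped, and the difference between these 2 genes was not tested.

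**Figure D2:**
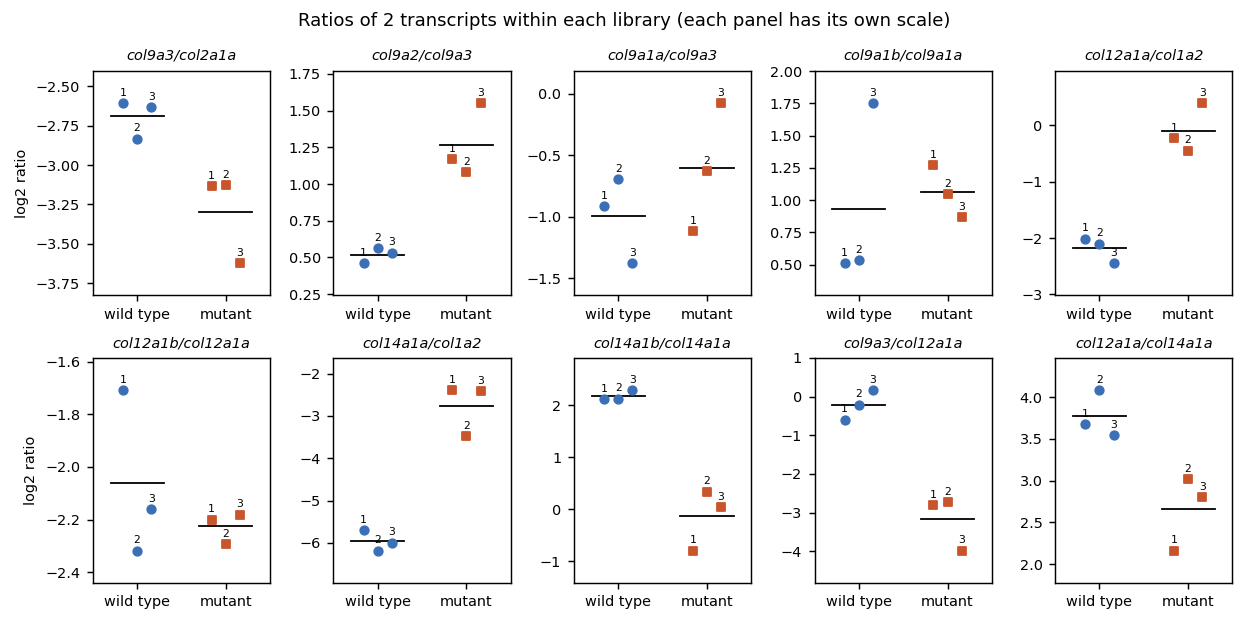
Log2 ratio of 2 transcripts within each library (vertical axis, own scale in each panel) for the 3 wild type pools (blue circles) and the 3 mutant pools (orange squares), with replicate numbers and a bar at the group mean; col14a1b stands for the row LOC100331704. The groups are apart in 7 of the 10 panels and overlap for col9a1a/col9a3, col9a1b/col9a1a and col12a1b/col12a1a. How often groups are apart for other gene pairs is not given.

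Collagen XII, the long fibril-associated collagen of tendon and fascia whose human gene is mutated in a myopathic form of Ehlers-Danlos syndrome, was lower by a smaller factor. For col12a1a, normalised read counts were 2130, 1980 and 1456 in wild type and 822, 1240 and 995 in mutant replicates 1 to 3. The groups did not overlap, but the lowest wild type pool was only 1.17 times the highest mutant pool. The log2 fold change was -0.87 (SE 0.20, limma, Benjamini-Hochberg adjusted p = 0.0394). Leaving out wild type replicate 1, wild type replicate 2, mutant replicate 1 or mutant replicate 3 ended this call (limma, adjusted p = 0.0711, 0.198, 0.151 and 0.143), with values from -0.86 to -0.72. In the same order, these fits called 2.33%, 0.447%, 0.908% and 0.75% of all genes lower, against 2.18% with all libraries.

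Transcripts of its paralog col12a1b had 652, 396 and 325 normalised read counts in wild type and 178, 252 and 218 in mutant replicates 1 to 3, again without overlap. Wild type replicate 1 was high, at 2.01 times wild type replicate 3. The log2 fold change of -1.03 (SE 0.26) did not pass in limma (Benjamini-Hochberg adjusted p = 0.0513), and it did in edgeR (adjusted p = 0.0480) and in DESeq2 (adjusted p = 0.00262). Without wild type replicate 1 and mutant replicate 2 it was -0.86 and passed (limma, adjusted p = 0.00629). That fit called 10.8% of all genes lower, and in it group and per3 level cannot be told apart.

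The table lists several transcripts for col12a1a (4 rows), col12a1b (6) and col14a1a (7), and 1 row for each of the type IX genes. In col12a1b the row with the lowest mean, XM_017352647.2, behaved unlike the others. It had 430, 109 and 83 reads in wild type replicates 1 to 3 and 78, 75 and 107 in mutant replicates 1 to 3, against 690, 404 and 328 and 190, 234 and 212 reads in the highest row. Wild type replicate 1 thus stood far above the other 5 libraries in this row. By itself this row did not pass (log2 fold change -0.81, SE 0.52, limma, Benjamini-Hochberg adjusted p = 0.49955 over all transcripts).

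What the highest row held beyond the lowest was closer together among the wild type pools than either row, but not among the mutant pools, and the groups did not overlap. It came to 246, 289 and 242 normalised read counts in wild type pools and 105, 171 and 108 in mutant pools. Entered in place of the gene's value, this remainder had a log2 fold change of -1.04 (SE 0.22) and passed in limma (Benjamini-Hochberg adjusted p = 0.0281). The table does not say which reads the rows share, so the remainder is a difference of values and not a count of reads from 1 isoform. This split was chosen after the values were seen.

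**Figure D3:**
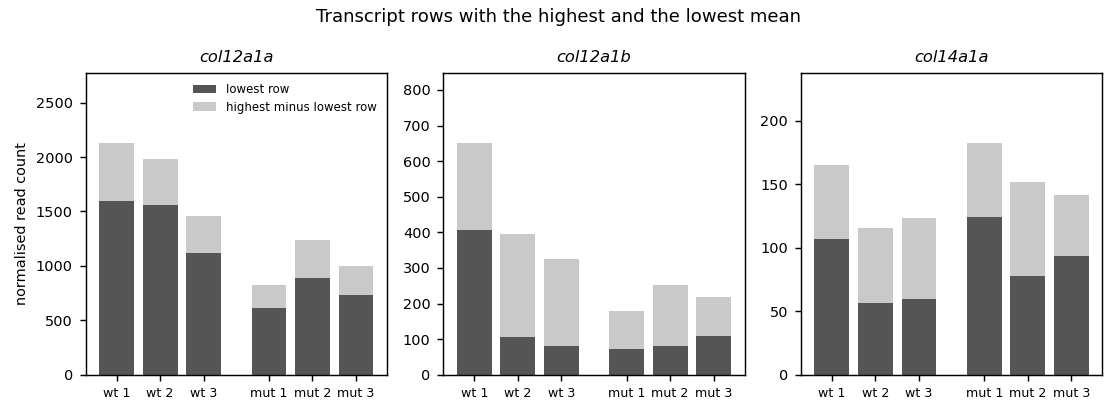
Normalised read count (vertical axis, linear from 0) of the transcript row with the lowest mean (dark) and of the highest row minus the lowest (light), stacked, for each wild type (wt) and mutant (mut) library. In col12a1b the dark part is 406 in wild type replicate 1 and 73.1 to 110.3 in the other 5 libraries, and the light part is 242 to 289 in wild type and 105 to 171 in the mutant.

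The balance of the XII paralogs overlapped between groups. The log2 ratio of col12a1b to col12a1a was -1.71, -2.32 and -2.16 in wild type pools and -2.20, -2.29 and -2.18 in mutant pools, a difference of -0.16 (exact p = 0.6, adjusted p = 0.667). By contrast, col12a1a was higher relative to col1a2, the α2 chain of the type I fibrils it binds. That log2 ratio was -2.01, -2.10 and -2.45 in wild type and -0.23, -0.45 and 0.40 in mutant replicates 1 to 3, a difference of 2.09 without overlap (exact p = 0.1, adjusted p = 0.143). Type IX was lower relative to type XII in every mutant pool, where the log2 ratio of col9a3 to col12a1a differed by -2.96 without overlap (exact p = 0.1, adjusted p = 0.143).

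Collagen XIV is known in mouse tendon for its part in early fibril growth. Values differed between col14a1a and LOC100331704, the row paired with col14a1b by gene ID alone. The gene col14a1a had 165, 116 and 124 normalised read counts in wild type and 183, 152 and 141 in mutant replicates 1 to 3, with overlapping groups. Its log2 fold change was 0.24 (95% interval -0.23 to 0.71, limma, Benjamini-Hochberg adjusted p = 0.606), so a fall beyond 0.23 on the log2 scale lay outside the interval. These values rest on 118 to 195 reads per library.

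The row LOC100331704, which carries the gene ID of col14a1b, had 723, 509 and 610 normalised read counts in wild type and 105, 193 and 145 in mutant replicates 1 to 3. Every wild type pool was at least 2.64 times the highest mutant pool. Its log2 fold change was -2.08 (SE 0.24, limma, Benjamini-Hochberg adjusted p = 0.00133), and it passed whichever library was left out (highest adjusted p = 0.00927). Counted as an eighth member, though its symbol was not in the table, it makes 6 of 8 lower. In the same limma fit 2.18% of all genes tested were called lower.

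The balance between LOC100331704 and col14a1a did not overlap between groups, in a test that could not pass. The log2 ratio of LOC100331704 to col14a1a was 2.12, 2.13 and 2.29 in wild type and -0.79, 0.34 and 0.04 in mutant replicates 1 to 3. The wild type pools lay within a narrow range and the mutant pools well below it, with a mean difference of -2.32 (exact p = 0.1, adjusted p = 0.143). The gene col14a1a was also higher relative to col1a2, by 3.202 on the log2 scale (exact p = 0.1, adjusted p = 0.143), and lower relative to col12a1a, where the log2 ratio of col12a1a to col14a1a differed by -1.11 (exact p = 0.1, adjusted p = 0.143).

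Log2 fold changes of the same rows in the authors' deposited table were -3.40 for col9a1a, -3.28 for col9a1b, -3.02 for col9a2 and -3.71 for col9a3. The authors' deposited table gave -0.865 (q-value 0.000114) for col12a1a, -1.08 (q-value 0.000389) for col12a1b, 0.234 (q-value 0.682) for col14a1a and -2.06 (q-value 1.66e-18) for LOC100331704. The q-value of col12a1b was thus under 0.05 there, unlike the adjusted p in limma.

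The partner genes of these collagens were also counted, by role. Of 42 names in 6 lists, 38 were found, 2 of them under another symbol, and all 38 were tested. Of these, 21 fell, none rose (0 in limma, with 3 at an unadjusted p under 0.05, 0 in edgeR and 0 in DESeq2) and 17 did not pass, with a median log2 fold change of -1.16. Over all genes tested, 2.18% were called lower and 2.31% higher in the same limma fit. The count of lower partner genes was 13 without wild type replicate 2, in a fit that called 0.447% of all genes lower.

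The 5 cartilage fibril collagens on which collagen IX sits all fell, with a median log2 fold change of -3.04. The smallest p-values were those of col2a1b, a type II chain, at -2.60 (SE 0.19, limma, Benjamini-Hochberg adjusted p = 0.000239), and col11a2, a type XI chain of the fibril core, at -3.19 (SE 0.25, adjusted p = 0.000264). Among the 8 type I and V chains to which XII and XIV bind, 6 fell and 2 did not pass, with a median of -2.59. They included the minor chain col5a3b at -3.42 and the type I chain col1a1b at -2.96. The lowest fall of a type V chain, col5a2a at -0.77, was near that of col12a1a. Other fibril-associated collagens were found for 3 of 5 names. Of these 3, 1 fell and 2 did not pass. The gene col16a1 fell by 1.39, while col21a1, at -1.61, did not pass (limma, adjusted p = 0.0997). The row of col19a1, zgc:153049, was at 0.13 with overlapping groups (limma, adjusted p = 0.933).

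**Figure D4:**
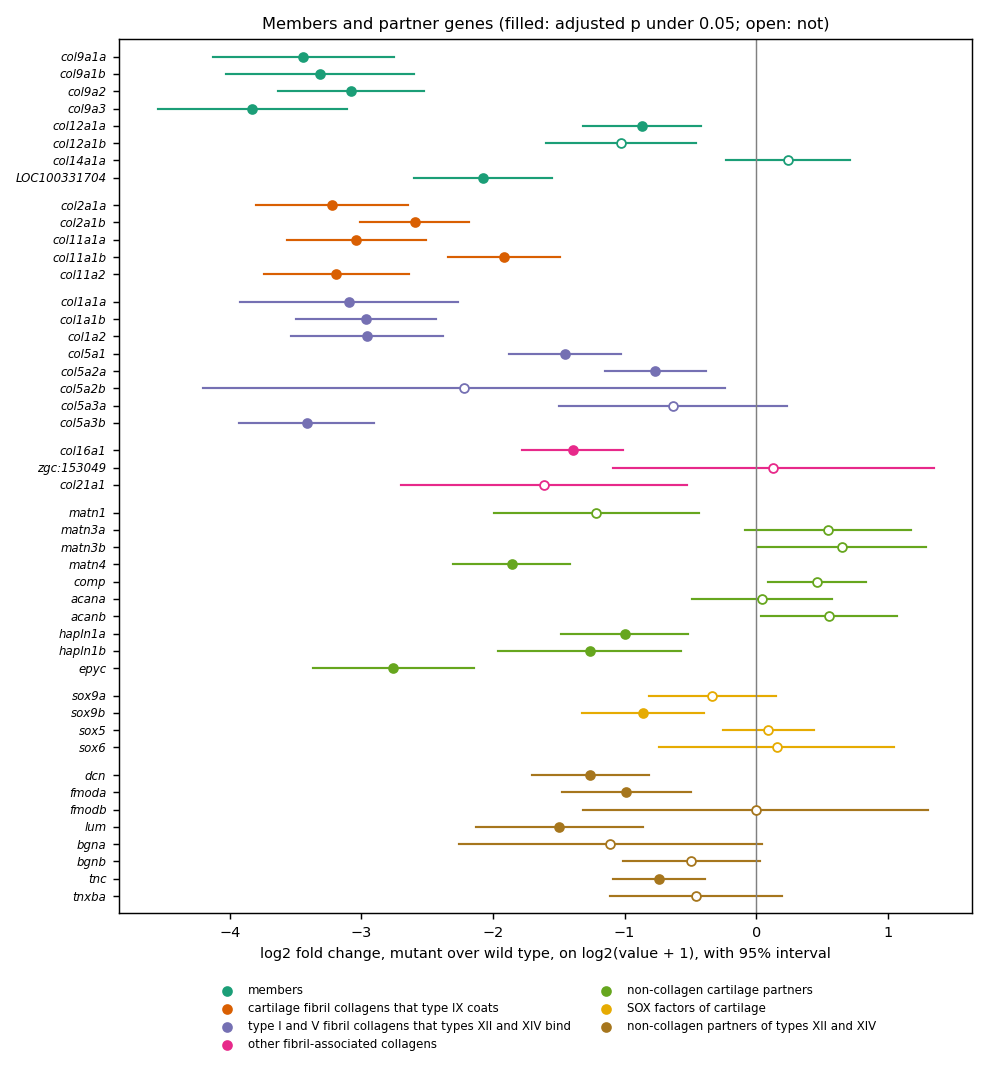
Log2 fold change of mutant over wild type on the log2(value + 1) scale (horizontal axis) with its 95% interval from limma, for the members with LOC100331704 and for the genes of the 6 partner lists, colored by list. Filled points passed the adjusted p of 0.05; type IX chains lie between -3.83 and -3.08, and col14a1a lies at 0.24 with an interval that spans 0.

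Non-collagen partners moved less evenly. Of 10 non-collagen genes of cartilage matrix, 4 fell and 6 did not pass, with a median of -0.48. The proteoglycan gene epyc (epiphycan) fell, at -2.76, and so did matn4, a matrilin that bridges matrix fibrils, at -1.86. By contrast, comp, the cartilage oligomeric matrix protein that binds collagen IX in mammals, had normalised read counts of 350, 325 and 398 in wild type pools and 522, 542 and 419 in mutant pools. All mutant pools were above all wild type pools for comp, an ordering found in 11.6% of all genes tested. The log2 fold change of comp, 0.46, did not pass (limma, adjusted p = 0.166). In the same list matn3b (0.65) and acanb (0.56) had this ordering and matn1 (-1.21) had the reverse, and none of them passed. The aggrecan gene acana was at 0.04 (limma, adjusted p = 0.952). The genes comp, matn3b, acanb, matn1 and acana were chosen for mention after their values were seen.

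Among 4 SOX factors that drive cartilage genes, including those of collagens II and IX in mammals, sox9b fell by 0.86 (limma, adjusted p = 0.0464), and sox9a, at -0.33, did not pass (adjusted p = 0.466). Of the others, sox5 was at 0.09 (limma, adjusted p = 0.816) and sox6 at 0.15 (adjusted p = 0.889). In this list 1 of 4 fell and 3 did not pass, where 2.18% of all genes tested were called lower. The list median was -0.12. Among 8 partners of collagens XII and XIV, 4 fell and 4 did not pass, with a median of -0.86. The small proteoglycans dcn (decorin), which binds collagen XIV, and lum (lumican) both fell, at -1.26 and -1.495.

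Markers of cell types moved with some of these results, and their part in them was not tested. Over all genes tested, 2.18% were called lower in limma, 2.21% in edgeR and 3.12% in DESeq2. The share of all genes at an unadjusted p under 0.05 is not given here, so marker counts at that level have no background. Of 6 chondrocyte markers 2 fell and 4 did not pass in limma (4 lower at an unadjusted p under 0.05, 2 in edgeR and 4 in DESeq2). The summed level of the 6 was 2932 to 4187 in wild type and 1435 to 2700 normalised read counts in mutant pools. Of the 3 notochord markers 0 passed in limma (1 at an unadjusted p under 0.05, 0 in edgeR and 0 in DESeq2), and their sum was 707 to 1314 in wild type and 624 to 836 in the mutant. For 3 tendon markers the sum was 294 to 355 and 152 to 163, and 1 of them, tnmd (tenomodulin), fell by 1.85. Of 4 fibroblast markers 0 passed in limma (0 at an unadjusted p under 0.05, 0 in edgeR and 0 in DESeq2), with sums of 454 to 566 and 371 to 529. All 4 markers of dividing cells fell, with sums of 1236 to 1412 and 355 to 644. Of 4 epidermal markers 2 fell in limma (3 at an unadjusted p under 0.05, 2 in edgeR and 3 in DESeq2), with sums of 100620 to 124900 and 40371 to 77487. Of 5 muscle markers 0 passed in limma (0 at an unadjusted p under 0.05, 0 in edgeR and 1 in DESeq2), with sums of 455630 to 585960 and 291410 to 431180. Taken singly, actc1b, mylpfa, tnnt3a and ckma had overlapping groups, and myhz1.1 did not. All sums of this kind are weighted to the genes of highest value, such as actc1b here and krt4 among the epidermal markers. Of 4 neuron markers 0 passed in limma (1 at an unadjusted p under 0.05, 0 in edgeR and 0 in DESeq2), with sums of 10510 to 14305 and 10854 to 12513. No marker gene was at 0 in all libraries.

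Genes were ranked by likeness to each type over the 6 libraries, using Pearson's r with the mean centred log2 value of the type. The search covered 15530 tested genes with a mean of 10 or more. Genes with clone or locus names and the members were left out. These r values describe the 6 libraries, and those for types IX and XII mostly follow the group difference. For type XIV, both col14a1a and the genes closest to it had overlapping groups. The genes named are the highest of 15530 over only 6 libraries. How high r would be among unrelated genes in such a search was not tested. Closest to type IX were col11a2 (r = 0.9995), col2a1a (r = 0.999) and plod1a, a lysyl hydroxylase gene (r = 0.998). Their log2 fold changes were -3.19, -3.22 and -0.78, the last of which did not pass (limma, adjusted p = 0.0847). Closest to type XII were sh3d19, pvrl4 and calr3b (r = 0.997, 0.996 and 0.995), at -0.90, -0.997 and -0.80. Of these sh3d19 passed (limma, adjusted p = 0.0464), and pvrl4 and calr3b did not (adjusted p = 0.0606 and 0.0952). Closest to col14a1a were dnah6, slc9a6a and pnpla1 (r = 0.991, 0.9746 and 0.973), at 0.39, 0.61 and 0.30, and all 3 missed the threshold.

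Among the members, col9a2 and col9a3 followed each other most closely over the 6 libraries (r = 0.999). The XII paralogs had r = 0.954, and LOC100331704 had r = 0.966 with col9a1a and -0.507 with col14a1a. These r values are also set mainly by the group difference, and all share the libraries. For the r of -0.507, LOC100331704 and col14a1a had log2 fold changes of opposite sign, -2.08 and 0.24. That of col14a1a did not pass.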

How the data were processed

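RNA sequencing of 6 pools was deposited by the authors as 1 table of 45602 RefSeq transcripts, with a signal value per library and transcript. Per the submitters' processing notes the build was GRCz11; the aligner, counter, strand setting and scaling were not given in the sources used here. In each library 100% of the deposited signal values were whole multiples of the smallest positive value (tolerance 0.001), so they were taken as reads divided by 1 factor per library. In wild type replicate 3 that step was 0.990, too close to 1 to be told from rounding by low values alone. Per the file headers, each transcript also has the authors' p-value, q-value and log2 fold change. Isoforms of 1 gene, near-identical copies and antisense transcripts may share reads.

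Each gene was represented by its transcript with the highest mean. The main test was limma 3.58.1 in R 4.3.3 on log2(value + 1) with an intensity trend, for the 22803 genes that reached a value of 1 in 3 or more libraries, with Benjamini-Hochberg adjustment over all of them and a threshold of 0.05. Fold changes on this scale understate the change of low genes. Errors are SD (n = 3) or SE. Count tests on the recovered reads were alternatives: edgeR 4.0.16 called 503 genes lower and 561 higher, and DESeq2 1.42.0 called 698 and 762. Other pseudocounts, filters, scalings, transcript choices, a replicate block and left-out libraries were also tried. The script was tested on simulated data. Replicate libraries differed beyond sampling noise (chi-square of 5.47 to 22.0 per gene), so each counted as 1 sample.

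The members, lists and tests were chosen with earlier results of these data known. The text names all members, znf469, the 2 genes of smallest p in each partner list and the 3 genes closest to each type; others named were chosen after their values were seen.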

Additional observations from a re-analysis of the deposited data

How the results depend on the processing

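Each member kept its direction under 18 other settings (count tests, scalings, pseudocounts, filters, transcript choices, a replicate block and left-out libraries). The 4 type IX chains were called in all 18, col12a1a in 14, col12a1b in 7 and col14a1a in 0. The number of members called lower stayed within 1.5 times the main count of 5. Without both libraries that stood apart, 2464 of all genes were called lower and 2551 higher (497 and 526 with all), and 2 partner genes (sox6 and the row of col19a1) were called higher. In that fit group and per3 level cannot be told apart. With 1 library left out, the counts over all genes ran from 102 to 771 lower and from 142 to 814 higher, and those of partner genes from 13 to 20 lower. The fewest calls of all genes came without wild type replicate 2. Deviations of same-numbered pools from their group means had correlations of 0.184, 0.183 and -0.394 for replicates 1, 2 and 3. For pools of different number they ran from -0.411 (wild type 1 with mutant 2) to 0.416 (wild type 1 with mutant 3). With 3 pools in each group, these values cannot decide whether same-numbered pools share a batch or clutch. With the replicate block 488 genes were called lower and 492 higher, and col12a1b passed (limma, adjusted p = 0.0437).

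The direction of 2 ratios reversed. Without both libraries that stood apart, col9a1b to col9a1a differed by -0.075 and col12a1b to col12a1a by 0.049; with 1 library left out they ran from -0.084 to 0.54 and from -0.29 to 0.015. In an alternative added after the data were seen, the lowest transcript row was subtracted from the highest. The log2 fold change of col14a1a then reversed to -0.037 (adjusted p = 0.962), and that of col12a1a was -0.68 and did not pass (adjusted p = 0.145). The cause was not tested. Low counts, such as 57 reads of col9a1a in mutant replicates 1 and 3, limit the precision of single values.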

Other observations

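Within genes that have several transcript rows, the lowest row of col12a1b held 62.3%, 27.0% and 25.3% as many reads as the highest row in wild type replicates 1 to 3, and 41.1%, 32.1% and 50.5% as many in mutant replicates 1 to 3. For col14a1a the same percentages were 64.6%, 49.2% and 48.0% in wild type pools and 68.2%, 51.1% and 66.4% in mutant pools. In both genes wild type replicate 1 and mutant replicates 1 and 3 were the 3 highest libraries. These 3 libraries were also the highest for the clock gene per3, at 564, 354 and 518 normalised read counts, against 86.1 to 95.9 in the others. The median of this percentage over 2861 genes with several rows was highest in the same 3, at 66.8%, 65.6% and 66.2%, against 62.4% to 65.4% in the others. For col12a1a the percentages were 72.0% to 78.6% and the order was another. The part of per3 or of RNA quality in these differences was not tested.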
